A study of Mus musculus with 30 samples.

Results

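The cytosolic ribosomal protein genes of mouse embryonic stem cells were followed in 30 3' tag RNA libraries. Members were taken by symbol, Rpl or Rps followed by a number and a paralog letter where there is one, plus Rplp0, Rplp1, Rplp2 and Rpsa, without pseudogene names and without the S6 kinase genes. The rule found 84 of the 12428 genes in the table, 51 of the large subunit and 33 of the small subunit. RefSeq lists 84 protein-coding symbols that meet the rule, and 83 of them were in the table. All 84 members passed the filter on low values and were tested.

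The naive stem cells came from a C57BL/6J x 129 cross and were kept in serum medium with LIF and inhibitors of MEK and GSK3. All groups lack KMT2C, a histone methyltransferase that acts at enhancers. The label of the Kmt2c-KO cells also gives floxed alleles of the partner gene Kmt2d, and the double-KO cells lack both genes. Both kinds of cell carried GRHL2-ERT, in which the epithelial regulator GRHL2 is joined to the ligand-binding part of the estrogen receptor and enters the nucleus on tamoxifen, and were given ethanol or tamoxifen for 8 h or 16 h. Further Kmt2c-KO cells that lack GRHL2-ERT had tamoxifen for the same times. Each of the 10 groups had 3 libraries. Clones had been picked for similar GRHL2 levels, but Grhl2 tags in ethanol differed between the lines, as given below. Loss of KMT2D and the clone that carries it cannot be told apart. The labels do not say that replicates were separate cultures, so the p-values measure only the spread between these libraries.

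A ribosome is built from a small subunit, which reads the mRNA, and a large subunit, which joins amino acids. Each subunit holds ribosomal RNA and a set of proteins needed in equal numbers, and the genes of these proteins are among the most active in dividing cells. Many of their mRNAs start with a run of C and T bases, the terminal oligopyrimidine or TOP motif, through which mTOR and LARP1 control their translation and stability. A few proteins have a paralog encoded by a separate gene, such as RPL39L for RPL39 and RPL10L for RPL10, which are best known from the male germ line.

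A C and T run at the gene start is a feature that many of these genes share. The stretch around the start is printed for members with a long run and for the paralog pairs that the results turn on. Each stretch holds 40 bases before and 15 bases from the RefSeq start (build GRCm38.p6), 5' to 3' on the gene's strand, with the longest run of C and T bases that reaches to within 5 bases of the start in capitals.
Rps6: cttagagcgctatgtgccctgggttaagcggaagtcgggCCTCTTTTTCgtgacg
Rpl28: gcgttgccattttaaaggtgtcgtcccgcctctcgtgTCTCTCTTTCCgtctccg
Rpl35: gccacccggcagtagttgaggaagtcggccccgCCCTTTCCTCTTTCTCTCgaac
Rps18: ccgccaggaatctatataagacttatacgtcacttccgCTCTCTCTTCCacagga
Rpl14: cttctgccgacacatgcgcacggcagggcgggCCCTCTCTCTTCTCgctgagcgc
Rpl38: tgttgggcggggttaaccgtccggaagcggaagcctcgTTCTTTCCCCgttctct
Rpl22l1: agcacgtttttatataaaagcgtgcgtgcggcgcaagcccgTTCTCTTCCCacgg
Rpl39: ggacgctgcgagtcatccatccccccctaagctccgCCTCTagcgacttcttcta
Rpl39l: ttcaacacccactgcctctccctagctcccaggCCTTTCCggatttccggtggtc
Rpl10: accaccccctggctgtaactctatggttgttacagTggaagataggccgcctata
Rpl10l: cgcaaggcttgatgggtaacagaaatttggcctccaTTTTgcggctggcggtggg
The stretches lie in Rps6 at chr4:86857353-86857407 (minus), Rpl28 at chr7:4792925-4792979 (plus), Rpl35 at chr2:39005117-39005171 (minus), Rps18 at chr17:33955651-33955705 (minus), Rpl14 at chr9:120571477-120571531 (plus), Rpl38 at chr11:114668540-114668594 (plus), Rpl22l1 at chr3:28805468-28805522 (plus), Rpl39 at chrX:37085208-37085262 (minus), Rpl39l at chr16:10170188-10170242 (plus), Rpl10 at chrX:74270776-74270830 (plus) and Rpl10l at chr12:66284387-66284441 (minus), with the strand in brackets. The run is 18 bases long in Rpl35, 14 in Rpl14 and 10 in Rps6. It is 7 bases long in Rpl39l, 5 in Rpl39, 4 in Rpl10l and 1 in Rpl10 at the RefSeq start used here. In Rpl39l, Rpl10l and Rpl10 the run lies wholly before that start, so by it the run is not in the mRNA and is not a TOP motif.

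RefSeq promoters, from 250 bases before to 50 after the start, were matched for 63 of the 84 members in 75 windows. A C and T run of at least 8 bases within 5 bases of the start was found in 32.0% of the member windows and in 9.72% of all 32851 windows. CCGGAAG, a word bound by ETS factors, was found on either strand in 36.0% of member windows and 8.86% of all. AAGATGGC, a YY1 word that can share the bases AAG with CCGGAAG, was found in 10.7% and 2.75%. CACGTG, the E-box that MYC can bind, was found in 10.7% and 7.15%, and TATAAA in 9.33% and 13.6%. AACCNGTT, the word of the GRHL family, was found in 1 member window, that of Rpl39 (1.33%, against 2.09% of all). All of these are matches of letters, read as a description.

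Recovered depth ran from 8.86 to 22.1 M reads per library with a median of 16.2 M, and 3 reads stood for 0.136 to 0.339 CPM (reads of a gene scaled to a fixed library total). Naive stem cell markers were all measured (12 of 12) and summed to 5462 to 12583 CPM. Grhl2 was at 1.40 to 3.55 CPM without GRHL2-ERT and at 32.4 to 210.4 CPM with it. Tags of Kmt2d lay between 5.77 and 23.4 CPM and those of Kmt2c between 9.47 and 32.8 CPM over all lines, and a 3' tag outside the deleted part does not check a knockout. Rn45s, the ribosomal RNA precursor, took 3.10% to 7.40% of tags in the 8 h libraries and 1.85% to 2.61% in the 16 h libraries, without overlap. Its reads can depend on how RNA was selected, and what set its level here was not tested. The double-KO tamoxifen 8 h library of replicate 2 stood apart. It had the fewest reads, and it was the lowest of all 30 libraries for 48 of the 84 members and the highest for 10 of them. Over all tested genes it was the lowest for 19.9% and the highest for 20.5%. Some of the results that rest on it are given with and without it.

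Ribosomal protein genes were among the most abundant genes. Over the 30 libraries their median level was 2547 CPM against 14.4 CPM over all genes, 74 of the 84 had a mean of at least 1000 CPM, and 29 of the 50 most abundant genes were members. A 3' tag protocol reads a tag for each transcript rather than for each stretch of its length, so CPM levels were compared between genes without a length term. The highest mean levels were those of Rps23 (8142 CPM), a protein near the decoding centre, Rpl41 (7464 CPM), the smallest ribosomal protein, and Rps12 (6746 CPM). The lowest were those of Rpl3l (0.977 CPM), the muscle paralog of Rpl3, then Rpl30 (28.8 CPM) and Rpl26 (33.3 CPM), which was at 0 in 4 libraries. The members lie on 19 chromosomes, with 14 on chromosome 7 and 8 on chromosome 17.

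Ribosomal protein genes share sequence with many processed pseudogenes, and how shared reads were split is not given in the sources used here. The GENCODE annotation of mm10 names 293 pseudogenes under 61 of the members, and 5 such rows are in the table, of which Rps15a-ps6 had a mean of 1680 CPM. Rps12 has 23 named pseudogenes, Rpsa has 9, Rpl36 has 8 and Rps7 has 2. Rpl17 has 11 named pseudogenes, Rpl30 has 9, Rpl26 has 6 and Rps27 has 1. For 57 of the 61 members, these 8 among them, none of the named pseudogenes is in the table. The levels of all 61 are uncertain in this way and stand for reads given to these gene names.

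The 84 genes together took 16.9% to 28.1% of a library's tags. In ethanol, the share was 22.5% ± 0.43 (SD, n = 3) in Kmt2c-KO cells at 8 h and 26.0% ± 0.38 at 16 h. In double-KO cells in ethanol it was 19.0% ± 0.91 at 8 h and 20.9% ± 0.16 at 16 h. In tamoxifen, GRHL2-ERT Kmt2c-KO cells had 24.5% ± 0.02 at 8 h and 26.8% ± 1.16 at 16 h. Double-KO cells in tamoxifen had 18.7% ± 1.59 at 8 h and 21.1% ± 0.77 at 16 h. Without GRHL2-ERT the Kmt2c-KO cells had 23.2% ± 0.48 at 8 h and 27.2% ± 0.55 at 16 h. At each time every double-KO library lay below every Kmt2c-KO library, and within each line and treatment the 16 h libraries lay above the 8 h libraries.

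**Figure D1:**
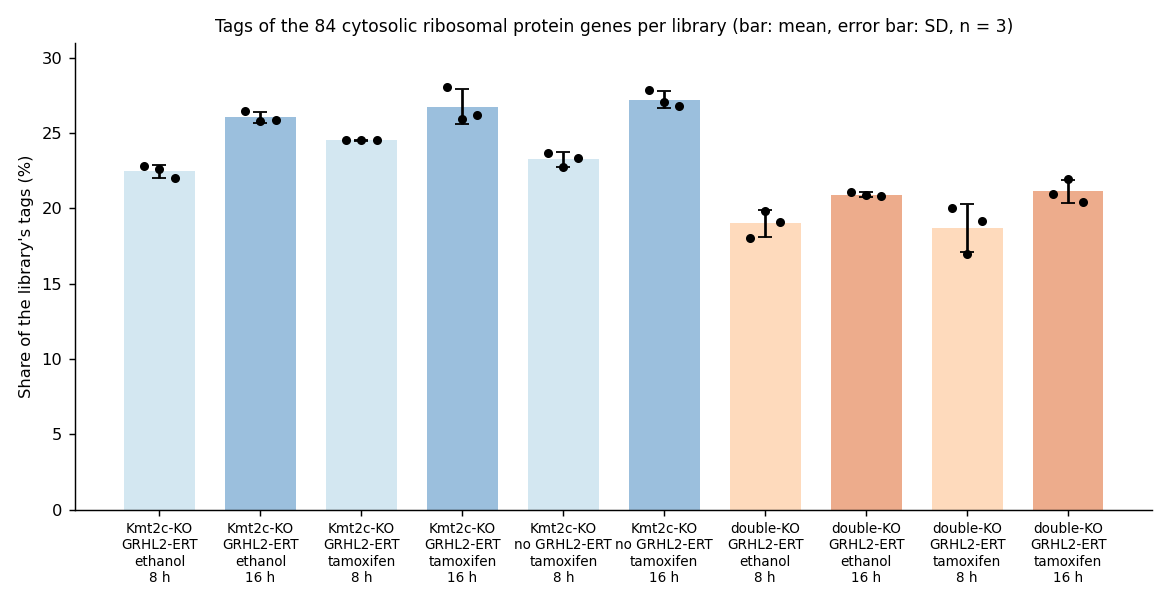
Share of tags from the 84 ribosomal protein genes in each library (y axis, percent, from 0), by group (x axis). Bars are means of 3 libraries, error bars are SD and points are libraries. Double-KO groups (orange) have means of 18.7% to 21.1% and Kmt2c-KO groups (blue) have means of 22.5% to 27.2%.

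The comparison of the lines in ethanol asks how cells that also lack KMT2D differ before GRHL2 is switched on. Most of the ribosomal protein genes that differed were less abundant in double-KO cells. There 40 of the 84 members were lower and 4 were higher than in Kmt2c-KO cells at 8 h, and 44 were lower and 1 was higher at 16 h (limma, Benjamini-Hochberg adjusted p under 0.05 over 12414 genes). Over all tested genes the balance was the other way, with 11.9% lower and 37.6% higher at 8 h and 9.96% lower and 40.0% higher at 16 h. The members' median log2 fold change was -0.26 at 8 h and -0.33 at 16 h, against 0.31 and 0.35 over all tested genes. Both subunits were represented: 27 of 51 large and 13 of 33 small subunit genes were lower at 8 h, and 30 and 14 at 16 h. Of the 40 genes lower at 8 h 87.5% were also lower at 16 h, which is 79.5% of the 44. The same overlap over all genes is not given here. Over the 84 members the log2 fold changes at 8 h and 16 h had a Pearson r of 0.36 and a Spearman rho of 0.58.

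How many members were called depended on the scaling of the libraries. With median-of-ratios scaling, which sets the typical gene to no change, the median over all genes moved to 0.03 at 8 h and 0.02 at 16 h. The members' median was then -0.58 and -0.70, with 61 lower and 1 higher at 8 h and 69 lower and 0 higher at 16 h, against 21.3% and 20.7% of all genes lower. Relative to the median over all genes, the members' median was -0.58 at 8 h with the total of the table and -0.61 with median-of-ratios scaling, and -0.68 and -0.73 at 16 h. With the 6 libraries of the 16 h contrast alone 72 were lower and 2 higher, against 15.5% and 54.6% of all genes. When the total was taken over the genes that are not members, 46 were lower and 3 higher at 8 h and 57 lower and 0 higher at 16 h. The shares of all genes called with that total are not given here, so these counts describe the setting only.

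**Figure D2:**
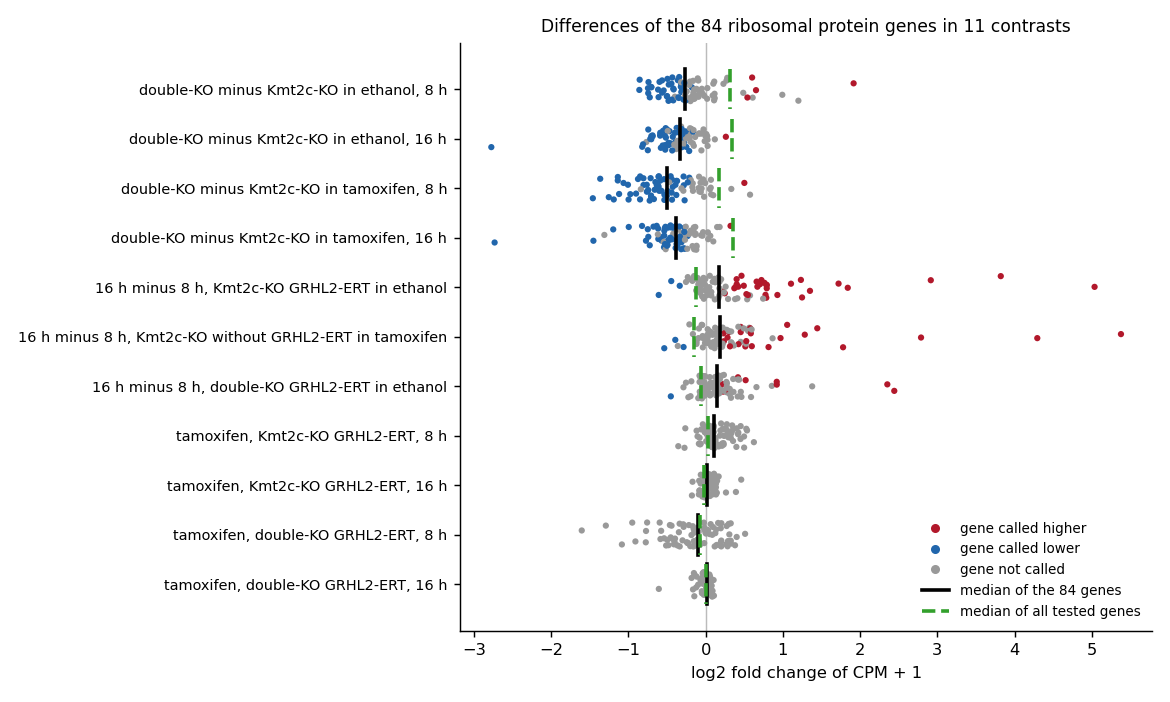
Log2 fold change of CPM + 1 (x axis) of each of the 84 ribosomal protein genes in 11 contrasts (y axis). Points are genes, red where called higher, blue where called lower and grey where not called, and lines mark the median of the 84 genes (black) and of all tested genes (green, dashed). In ethanol the black line is at -0.26 and -0.33 for the 2 line contrasts while the green line is at 0.31 and 0.35.

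The tamoxifen libraries of the same lines, compared in the same way after the data were seen, also had lower members in double-KO cells. At 8 h 57 members were lower and 1 was higher, with a median of -0.50, against 14.0% of all genes lower and 30.6% higher. Without the double-KO library of replicate 2, 56 were lower and 2 higher, and the median was -0.32. The shares of all genes called in that fit are not given here, so these counts describe the setting only. With the 6 libraries of this contrast alone 20 were lower and 1 was higher, against 6.31% of all genes lower and 15.5% higher. At 16 h 49 were lower and 1 was higher, with a median of -0.38, against 10.1% lower and 41.2% higher. With the double-KO tamoxifen library of replicate 2 included, the members did not fall alike in both treatments at 8 h. The overlap and correlations at 8 h and the counts over all 4 contrasts include that library. They are not given without it, so its part in them was not tested. Of the 57 lower in tamoxifen 54.4% were also lower in ethanol, an overlap not given over all genes. Over the 84 members the line effects in ethanol and tamoxifen had a Pearson r of 0.27 and a Spearman rho of 0.15 at 8 h, and 0.92 and 0.94 at 16 h. In all 4 line contrasts 29 members were lower and 1 was higher. Over all genes 9.96% were lower in ethanol at 16 h, so at most that share was lower in all 4. For genes higher in all 4 the same limit is 30.6%, the share in tamoxifen at 8 h. Called in none of the 4 were 11 members, and the share of all genes called in none is not given here. Among the 11 were Rplp0, Rplp2, Rpl41, Rpl8, Rps20 and Rps27.

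Taking all treatments together, 29 members had every double-KO library below every Kmt2c-KO library at 8 h, and 59 did so at 16 h (6 against 9 libraries at each time). Over all tested genes 5.99% and 8.68% did so. Without the double-KO tamoxifen library of replicate 2 the count at 8 h was 37, against 7.27% of all genes. In the other direction, 1 member had every double-KO library above every Kmt2c-KO library at each time, against 16.9% of all genes at 8 h and 35.7% at 16 h.

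The stalk of the large subunit, the site where elongation factors land, holds Rplp0, Rplp1 and Rplp2, and differences between them were not tested. Rplp1 (chromosome 9, 61913284 to 61914542) was at 2436, 3127 and 2902 CPM in Kmt2c-KO ethanol libraries at 8 h and at 1969, 2205 and 1434 CPM in double-KO libraries. All 3 double-KO libraries lay below the Kmt2c-KO libraries, and the log2 fold change was -0.61 ± 0.21 (SE, adjusted p = 0.0182) at 8 h and -0.56 ± 0.21 (adjusted p = 0.0289) at 16 h. Rplp0, the anchor of the stalk and a common reference gene in qPCR, had log2 fold changes of -0.09 ± 0.06 and -0.05 ± 0.06 and was not called at either time. Its lowest library was at 2618 CPM and its highest at 3192 CPM over all 30 libraries. Rplp2, the partner of Rplp1, had values of 0.12 ± 0.20 and 0.03 ± 0.20 and was not called.

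Among small subunit proteins, Rps7 (chromosome 12, 28630854 to 28635953) was at 3168, 3073 and 3314 CPM in the ethanol libraries of Kmt2c-KO cells at 8 h, against 1627, 2000 and 2113 CPM in those of double-KO cells. At 16 h it was at 3458, 3478 and 3436 CPM and at 2157, 2169 and 2042 CPM. The groups did not overlap at either time, with log2 fold changes of -0.74 ± 0.11 (adjusted p = 2.55e-06) and -0.70 ± 0.11 (adjusted p = 4.68e-06). Rpsa, a protein at the back of the small subunit that is also known as a laminin receptor, was at 3060, 2874 and 3236 CPM against 1781, 1967 and 1744 CPM at 8 h (-0.74 ± 0.08, adjusted p = 6.59e-09). At 16 h Rpsa was lower by a log2 fold change of -0.52 ± 0.08 (adjusted p = 1.93e-06). Rps18 was lower at both times, with -0.44 ± 0.18 and -0.72 ± 0.18. Rps24, a protein needed to trim the pre-ribosomal RNA, was lower at 16 h (-0.75 ± 0.20, adjusted p = 0.004) and not called at 8 h (-0.32 ± 0.20). Rps6, the substrate of S6 kinase, was not called at either time, with values of 0.02 ± 0.18 and -0.29 ± 0.18. Rps21 was higher at 8 h only (0.54 ± 0.19, adjusted p = 0.0204), a call that was lost without Kmt2c-KO replicate 1 and without double-KO replicate 1 or 2 (values of 0.49 to 0.52).

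In the large subunit, Rpl36 (chromosome 17, 56613416 to 56614243) was at 2668, 2214 and 2557 CPM in Kmt2c-KO ethanol libraries at 8 h, against 1287, 1396 and 1422 CPM in the double-KO ones. Its log2 fold changes were -0.85 ± 0.10 (adjusted p = 3.53e-08) at 8 h and -0.74 ± 0.10 (adjusted p = 3.32e-07) at 16 h, and no double-KO library reached the Kmt2c-KO range at either time. Rpl13a, known for a part in silencing inflammatory mRNAs, was lower by -0.72 ± 0.10 and -0.45 ± 0.10. Rpl5 and Rpl11 form a particle with 5S RNA that can bind MDM2 and so hold p53 levels up. Rpl5 was lower at 8 h (-0.35 ± 0.13, adjusted p = 0.0257) and not called at 16 h (-0.28 ± 0.13), and Rpl11 was not called (0.11 ± 0.24 and -0.19 ± 0.24). Rpl41 was not called, with -0.16 ± 0.11 and -0.21 ± 0.11.

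**Figure D3:**
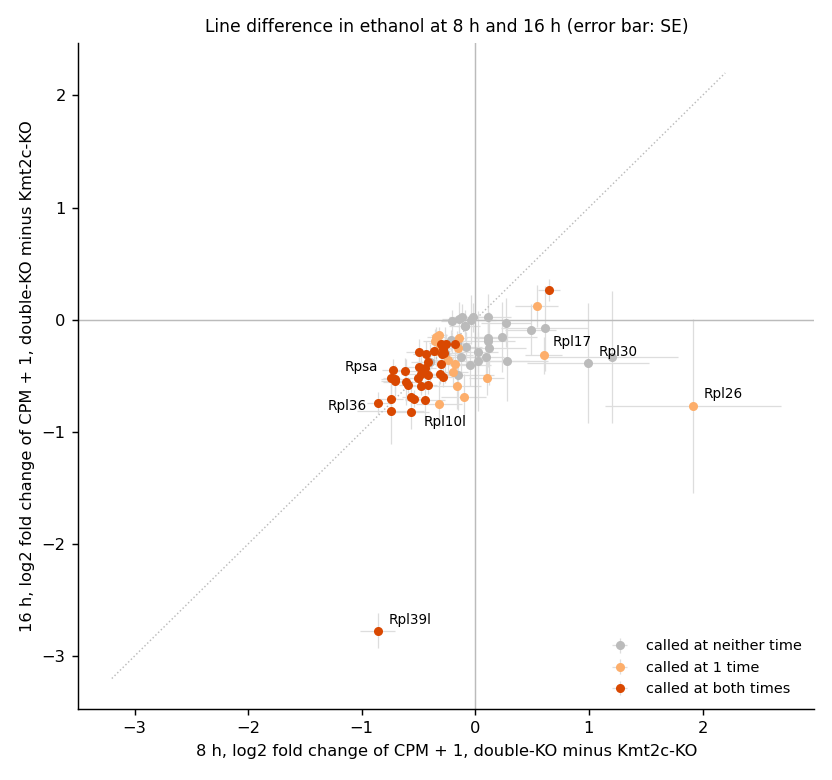
Line difference of each of the 84 ribosomal protein genes in ethanol at 8 h (x axis) and 16 h (y axis), as log2 fold change of CPM + 1 of double-KO minus Kmt2c-KO cells, with SE bars and the line of equality dotted. Points are coloured by the number of times at which the gene was called. Most points lie below and left of 0, and Rpl39l stands alone at -0.86 and -2.77.

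Of the paralogs, Rpl39l (chromosome 16, 10170226 to 10174911) had the largest fall. It was at 137, 141 and 131 CPM in Kmt2c-KO ethanol libraries at 16 h and its double-KO libraries lay between 17.1 and 22.4 CPM. At 8 h it was at 35.1, 44.4 and 43.1 CPM and at 23.5, 23.1 and 19.5 CPM. The groups were apart at both times, and the log2 fold changes were -0.86 ± 0.16 (adjusted p = 5.46e-05) at 8 h and -2.77 ± 0.16 (adjusted p = 2.47e-14) at 16 h. In tamoxifen they were -1.12 ± 0.16 and -2.73 ± 0.16. Kmt2c-KO cells without GRHL2-ERT had 218, 173 and 189 CPM at 16 h, above every library that carried GRHL2-ERT.

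Rpl39l was lower relative to its canonical gene too. In ethanol at 16 h it made up 3.43% ± 0.08 (SD, n = 3) of the tags of Rpl39l and Rpl39 in Kmt2c-KO cells and 0.638% ± 0.07 in double-KO cells, and the groups did not overlap. Rpl39, which lines the exit tunnel, had log2 fold changes of 0.28 ± 0.36 at 8 h and -0.37 ± 0.36 at 16 h and was not called.

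Rpl10l (chromosome 12, 66283379 to 66284401) was the other germ line paralog that was lower. At 16 h in ethanol its 3 Kmt2c-KO libraries were at 63.3, 61.0 and 62.2 CPM, against 36.6, 32.5 and 35.3 CPM in double-KO cells, and the groups did not overlap. Its log2 fold change was -0.82 ± 0.15 (adjusted p = 5.95e-05) at 16 h and -0.56 ± 0.15 (adjusted p = 0.0032) at 8 h. Its share of the pair with Rpl10 in ethanol at 16 h was 1.89% ± 0.04 in Kmt2c-KO and 1.26% ± 0.06 in double-KO cells. Rpl10 itself was lower at 16 h by -0.25 ± 0.09 (adjusted p = 0.0178).

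Other paralogs and their partners differed in direction and call. Rpl7l1, a relative of Rpl7 that acts in ribosome assembly, was lower at both times (-0.41 ± 0.08 and -0.58 ± 0.08), as was Rps4x (-0.44 ± 0.09 and -0.43 ± 0.09), the X-linked gene. Rpl22, an RNA-binding protein, was lower by -0.31 ± 0.08 and -0.22 ± 0.08. Rpl22l1 (0.02 ± 0.45 and -0.37 ± 0.45), Rps4l (-0.04 ± 0.22 at 8 h), Rps27 (1.20 ± 0.59 and -0.33 ± 0.59), Rps27l (-0.05 ± 0.18 and -0.41 ± 0.18) and Rps27a, made as a fusion with ubiquitin (0.27 ± 0.22 and -0.03 ± 0.22), were not called. Rpl3l was called lower at both times, but its double-KO ethanol libraries were at 0.0506 to 0.584 CPM, around the level of 3 reads, and at each time the call was lost in 4 of the 6 fits that left out a library. Its Kmt2c-KO ethanol libraries were at 0.162 to 2.01 CPM. Rpl26 was called higher at 8 h (1.92 ± 0.77, adjusted p = 0.0456) from 5.96, 22.8 and 1.64 CPM against 2.69, 1.21 and 0 CPM. These ranges overlapped, and the call was lost without Kmt2c-KO replicate 2 or 3 and without double-KO replicate 1 or 2 (values of 1.09 to 1.98). Rpl17, which lines the exit tunnel, was higher at 8 h (0.60 ± 0.16, adjusted p = 0.00362) and not called at 16 h (-0.32 ± 0.16). Its 8 h libraries were at 722, 908 and 602 CPM in Kmt2c-KO cells, against 1140, 1310 and 927 CPM in double-KO cells.

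The difference between the line effects at 16 h and at 8 h in ethanol was tested in the same fit, after the data were seen. It was called for 2 members, both lower, while 3.58% of all genes were higher and 1.26% lower (4.84% in all). The change of Rpl39l was -1.92 ± 0.22 (adjusted p = 2.17e-06), and it was -2.03 to -1.81 when 1 library was left out. That of Rpl17 was -0.92 ± 0.23 (adjusted p = 0.0184). Its call was lost without Kmt2c-KO replicate 3 at 8 h (-0.78) and without double-KO replicate 2 at 8 h (-0.80).

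Ribosomal proteins whose symbols fall outside the rule were measured as well. Fau, which encodes RPS30 fused to a ubiquitin-like protein, was lower at both times (-0.34 ± 0.09 and -0.24 ± 0.09). Rpl36al was lower as well (-0.48 ± 0.17 and -0.40 ± 0.17), and Gnb2l1, an older symbol of Rack1, was lower at 16 h (-0.25 ± 0.10).

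Mitochondrial ribosomal protein genes, which serve the ribosomes of the mitochondria, had 16 of 77 higher and 10 lower at 8 h, and 15 and 10 at 16 h, with medians of 0.13 and 0.04. Of 59 ribosome biogenesis factors 10 were higher and 13 lower at 8 h, and 10 and 8 at 16 h. Wdr43, a factor of the small subunit processome, fell by 0.80 ± 0.14 at 8 h, while Nop2, a ribosomal RNA methyltransferase, rose by 0.59 ± 0.10. The 14 genes of RNA polymerase I and its factors had 3 higher and 3 lower at 8 h and 4 and 3 at 16 h. Its subunit gene Twistnb fell by 0.92 ± 0.09 and 0.67 ± 0.09 and Rrn3, an initiation factor, rose by 0.64 ± 0.11 at 8 h. Of 19 translation factors whose mRNAs carry a TOP motif 4 were higher and 3 lower at each time, and of 17 snoRNA host genes 3 were higher and 4 lower at 8 h and 6 and 2 at 16 h. Of 25 regulators of the MYC and mTOR pathways 8 were higher and 2 lower at 8 h and 11 and 1 at 16 h. Myc rose by 0.91 ± 0.27 and Mxd4, a repressor that competes with MYC for MAX, by 1.40 ± 0.27 at 8 h, while Deptor, an inhibitor of mTOR, fell by 0.71 ± 0.12.

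Markers of cell state moved with the lines as well. Over all genes 37.6% were higher and 11.9% lower at 8 h, and 40.0% and 9.96% at 16 h. The summed level of the 12 naive stem cell markers was 8626 to 12583 CPM in Kmt2c-KO libraries, against 5462 to 6532 CPM in the double-KO ones. Of the 12, 3 were higher and 5 lower at 8 h and 1 and 6 at 16 h. Their log2 fold changes went both ways at 8 h, from -1.60 to 1.28 with a median of -0.14, and Sox2 fell by 1.52 ± 0.10. The 8 measured of 10 primitive endoderm markers summed to 16.2 to 83.0 CPM and 104 to 157 CPM, with 6 higher and 1 lower at 8 h and 6 and 0 at 16 h, and Gata6 was at 0 in the 3 libraries without GRHL2-ERT at 16 h. The 4 measured of 10 feeder fibroblast markers summed to 0.730 to 3.51 CPM and 3.50 to 8.66 CPM, with 3 higher and 0 lower at each time, and Col1a2 was at 0 in every library of 2 Kmt2c-KO groups. The 7 measured of 10 trophoblast markers summed to 78.5 to 313.7 CPM and 231.2 to 322.8 CPM, and the 4 measured of 10 markers of 2-cell-like cells to 0.243 to 31.4 CPM and 11.6 to 23.6 CPM. In ethanol, as for the other counts here, 3 trophoblast markers were higher and 3 lower at 8 h and 3 and 1 at 16 h, and of the 2-cell-like markers 4 were higher at 8 h and 2 at 16 h, with 0 lower at either time. Grhl2 itself was at 177.9 CPM ± 28.3 (SD, n = 3) in Kmt2c-KO ethanol libraries at 8 h, against 41.2 CPM ± 10.1 in the double-KO ones, and at 77.6 CPM ± 11.1 and 52.5 CPM ± 7.89 at 16 h. The part of these in the ribosomal protein result was not tested. In bulk libraries fewer cells of a type and less RNA per cell cannot be told apart.

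Line effects were also set beside the promoter words. The 24 members with a C and T run of at least 8 bases had a median log2 fold change of -0.14 at 8 h and -0.39 at 16 h, and the 39 matched members without it had -0.30 and -0.33. The 26 members with CCGGAAG had medians of -0.29 and -0.40, and the 37 without it had -0.24 and -0.33. The order of the groups with and without the C and T run thus changed from 8 h to 16 h. The 7 members with TATAAA had medians of -0.08 and -0.24, and the 56 without it had -0.30 and -0.37. The 6 with AAGATGGC had -0.36 and -0.39, and the 6 with CACGTG had -0.35 and -0.365. The 57 members without AAGATGGC and the 57 without CACGTG had -0.24 and -0.36 in both cases. Differences between these groups were not tested.

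The time comparison asks how the levels at 16 h differ from those at 8 h in untreated or non-inducible cells. In Kmt2c-KO ethanol libraries 31 members were higher and 3 lower at 16 h, with a median log2 fold change of 0.18, while 17.5% of all genes were higher and 27.5% lower (45.0% in all) with a median of -0.12. In Kmt2c-KO cells without GRHL2-ERT 23 members were higher and 3 lower (median 0.19), against 10.9% and 25.7% of all genes (median -0.15). In double-KO ethanol libraries 9 members were higher and 1 lower (median 0.14), against 8.72% and 12.5% of all genes (median -0.06). The number of calls in double-KO cells was 4 to 9 when 1 of the 6 libraries was left out, 26 with the contrast's libraries alone (29.2% of all genes) and 34 without the 2 libraries above 7% Rn45s (31.2% of all genes). Without GRHL2-ERT these 2 settings called 52 members (47.0% of all genes) and 48 (44.3% of all genes). With median-of-ratios scaling the counts were 43 higher and 2 lower in Kmt2c-KO ethanol libraries (23.0% and 21.7% of all genes), 45 and 0 without GRHL2-ERT (17.4% and 16.2%) and 17 and 0 in double-KO cells (11.4% and 8.20%).

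Time and Rn45s moved together, and no batch is labelled. The log2 fold change of Rn45s over time in Kmt2c-KO ethanol libraries was -1.22 ± 0.21 (adjusted p = 5.98e-05). With the log2 level of Rn45s as a covariate the members' median was -0.013 in Kmt2c-KO and -0.027 in double-KO ethanol libraries and 0.10 without GRHL2-ERT. The number called was then 12 in Kmt2c-KO cells, 8 of them higher, and 17 without GRHL2-ERT, 16 of them higher. The shares of all genes called with the covariate are not given here, so these counts describe the setting only. All 8 h libraries have more Rn45s than all 16 h libraries, so time and whatever set the Rn45s level, RNA selection or other, cannot be told apart here.

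A few members changed far more than the rest. Rpl26 (chromosome 11, 68901583 to 68906989) was at 2.69, 1.21 and 0 CPM in Kmt2c-KO ethanol libraries at 8 h and at 77.2, 63.3 and 56.4 CPM at 16 h, a log2 fold change of 5.04 ± 0.77 (adjusted p = 3.22e-05). In double-KO cells it was at 5.96, 22.8 and 1.64 CPM at 8 h and at 67.6, 42.4 and 18.6 CPM at 16 h, so the ranges of the times did not overlap in Kmt2c-KO cells and overlapped in double-KO cells (2.35 ± 0.77, adjusted p = 0.0352). The double-KO call was lost without replicate 1 or 2 at 16 h and without replicate 1 or 3 at 8 h, with values of 1.59 to 2.29. Rpl30 (chromosome 15, 34440505 to 34443640) was at 3.33, 5.94 and 0.748 CPM at 8 h and 49.5, 61.5 and 46.1 CPM at 16 h in Kmt2c-KO ethanol libraries (3.82 ± 0.54, adjusted p = 9.1e-06). In double-KO cells its log2 fold change was 2.44 ± 0.54 (adjusted p = 0.00295).

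Rps27 (chromosome 3, 90212522 to 90213651), a zinc finger protein of the small subunit, was at 318, 516 and 386 CPM at 8 h and 3045, 3082 and 2919 CPM at 16 h in Kmt2c-KO ethanol libraries (2.92 ± 0.59, adjusted p = 0.000465). In double-KO ethanol libraries the 8 h levels were 1368, 1577 and 358 CPM, with a wide spread, and the change was not called (1.38 ± 0.59). Its paralog Rps27l, a p53 target, rose by 0.79 ± 0.18 (adjusted p = 0.00115). The difference between the pair's changes was not tested. The share of Rps27l in the pair went from 53.4% ± 4.50 at 8 h to 20.8% ± 0.26 at 16 h. Rpl17 was at 722, 908 and 602 CPM at 8 h and 2629, 2642 and 2620 CPM at 16 h (1.84 ± 0.16, adjusted p = 6.84e-09). Rps24 rose by 1.35 ± 0.20, Rpl39 by 1.23 ± 0.36 and Rpl22l1 by 1.25 ± 0.45, and the share of Rpl22l1 in its pair with Rpl22 went from 7.24% ± 1.94 to 14.5% ± 0.53.

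The germ line paralogs rose over time in the Kmt2c-KO lines. Rpl39l rose by 1.72 ± 0.16 in Kmt2c-KO ethanol libraries and by 1.78 ± 0.16 without GRHL2-ERT, and its value in double-KO cells was -0.20 ± 0.16 (adjusted p = 0.385). Rpl10l rose by 0.78 ± 0.15, 1.28 ± 0.15 and 0.52 ± 0.15 in the same order and was called in each, the last of them not without double-KO replicate 1 at 16 h (0.48). Rpl10l was also the 1 member called between lines with and without GRHL2-ERT in tamoxifen, at 16 h. There it was at 51.5, 53.5 and 61.0 CPM with GRHL2-ERT and at 87.0, 109 and 121 CPM without it, a log2 fold change of -0.91 ± 0.15 (adjusted p = 0.0011), with 0.644% of all genes higher and 0.330% lower (0.975% in all). At 8 h limma called 0 members in that comparison, against 2.67% of all genes called higher and 1.39% lower (4.07% in all). There 3 members had an unadjusted p under 0.05 (3.57%, against 14.1% of all genes). At 8 h 26 members had every library with GRHL2-ERT above every library without it and 4 had them below, against 12.5% and 11.8% of all genes. This comparison shares its GRHL2-ERT libraries with that of tamoxifen and ethanol.

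Among the 3 members that fell over time in Kmt2c-KO ethanol libraries were Rpl8 and Rpl36. Rpl8 (chromosome 15, 76904078 to 76906314), a protein of the peptidyl transferase region, was at 2371, 1937 and 2069 CPM at 8 h and 1381, 1407 and 1383 CPM at 16 h (-0.61 ± 0.15, adjusted p = 0.0015). Rpl36, which was higher in Kmt2c-KO than in double-KO cells, had a log2 fold change of -0.34 ± 0.10 (adjusted p = 0.00574). With Rn45s as a covariate the value of Rpl8 was 0.023. In double-KO cells Rpl8 was at -0.45 ± 0.15 (adjusted p = 0.029), a call that was lost when any 1 of the 6 libraries was left out, with values of -0.48 to -0.43.

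Over all lines and treatments, 6 members had every 16 h library above every 8 h library (15 against 15), which 0.846% of all genes had. They were Rpl17, Rpl22l1, Rpl30, Rpl39, Rps27 and Rps27a. In the other direction 2 members, Rpl8 among them, had every 16 h library below every 8 h library, which 1.44% of all genes had. The counts were 6 and 2 without the double-KO tamoxifen 8 h library of replicate 2.

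**Figure D4:**
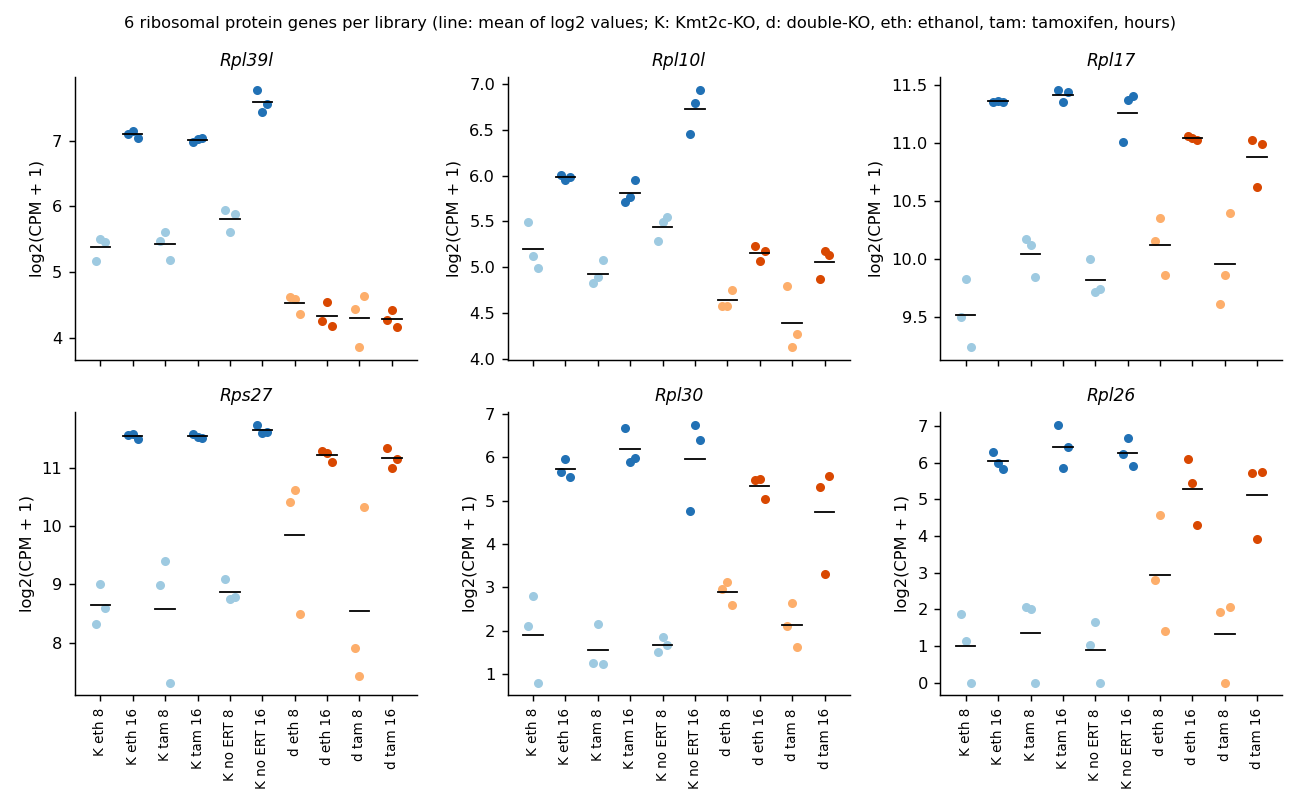
Levels of 6 ribosomal protein genes in each library (y axis, log2 of CPM + 1, with a range of its own for each gene), by group (x axis, line, treatment and hours). Points are libraries and lines are means of log2 values. Rpl39l and Rpl10l are lower in double-KO libraries (orange), and Rpl17, Rps27 and Rpl30 are higher in every 16 h library (dark) than in every 8 h library (light).

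Other gene lists were counted over time as well, where 17.5% of all genes were higher and 27.5% lower in Kmt2c-KO ethanol libraries. In Kmt2c-KO ethanol libraries 24 of 77 mitochondrial ribosomal protein genes were higher and 14 lower, 17 of 59 biogenesis factors were higher and 24 lower, and 3 of 14 RNA polymerase I genes were higher and 6 lower. Of 19 translation factors with TOP mRNAs 7 were higher and 7 lower. The log2 fold changes of these 19 ran from -1.01 to 1.35 with a median of 0.09. Among those that fell, Eef2, which moves the ribosome along the mRNA, fell by 1.01 ± 0.13. Eef1g, a subunit of the exchange factor of elongation, fell by 0.68 ± 0.10. Of 17 snoRNA host genes 3 were higher and 4 lower. Of 25 MYC and mTOR regulators 3 were higher and 9 lower. The stress-induced mTOR inhibitors Ddit4 and Sesn2 had log2 fold changes of -1.68 ± 0.20 and -1.93 ± 0.32.

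**Figure D5:**
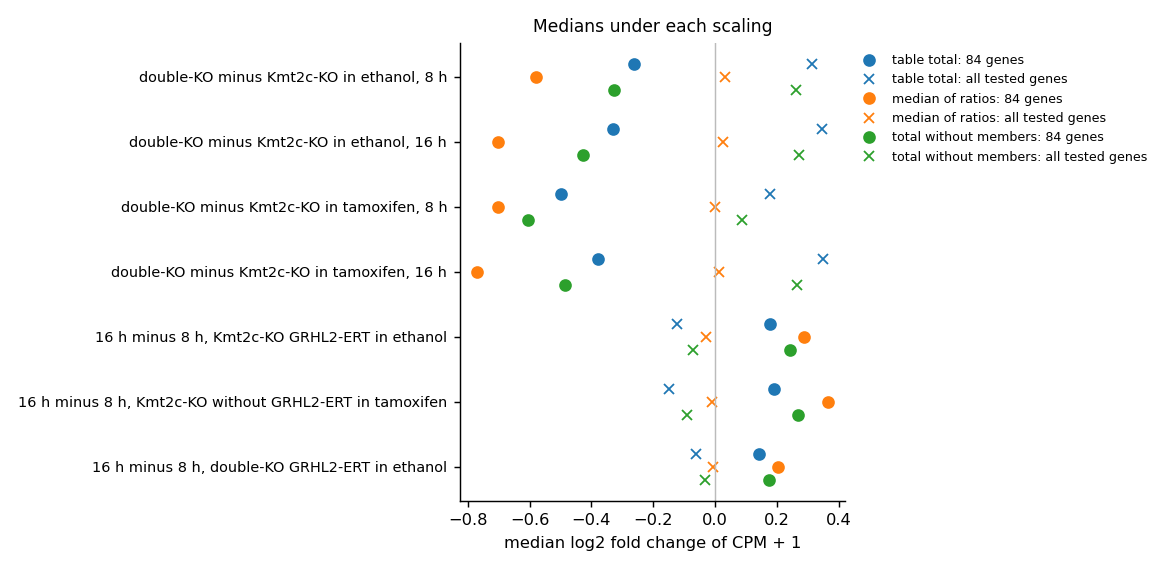
Median log2 fold change of CPM + 1 (x axis) over the 84 ribosomal protein genes (circles) and all tested genes (crosses) in 7 contrasts of line and time (y axis), under 3 scalings (colours). The medians of the 84 genes are below 0 in the 4 line contrasts and above 0 in the 3 time contrasts under each scaling, and median-of-ratios scaling puts the median over all genes near 0.

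Tamoxifen moves GRHL2-ERT into the nucleus, and its comparison with ethanol asks what tamoxifen changes in cells that carry GRHL2-ERT. No cells without GRHL2-ERT in ethanol are among the 30 libraries. In this comparison the effects of the drug and of nuclear GRHL2 cannot be told apart. No ribosomal protein gene passed the limma threshold in either line at 8 h or 16 h, 0 of 84 in each of 4 contrasts. Over all genes 2.92% were higher and 2.04% lower in Kmt2c-KO cells at 8 h (4.95% in all), and 0.290% and 0.00806% at 16 h (0.298% in all). In double-KO cells 0.0644% were higher and 0.0322% lower at 8 h (0.0967% in all), and 0.0322% and 0.00806% at 16 h (0.0403% in all). At an unadjusted p under 0.05, 12 members were higher in Kmt2c-KO cells at 8 h (14.3%, against 17.9% of all genes in either direction). In double-KO cells at 8 h 39 had such a p, 17 higher and 22 lower (46.4%, against 20.3% of all genes). At 16 h 0 members had it in either line, against 4.81% of all genes in Kmt2c-KO and 4.18% in double-KO cells.

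In Kmt2c-KO cells at 8 h, 34 members had every tamoxifen library above every ethanol library and 0 had them below, against 13.0% and 11.4% of all genes, and the median was 0.11. The share of tags was 2.04 percentage points higher in tamoxifen. Rn45s had a log2 fold change of -0.73 ± 0.21 (adjusted p = 0.0392) in the same comparison, and with it as a covariate the members' median was 0.00022. When only the 6 libraries of this contrast were fitted 8 members were called, all higher, against 3.45% of all genes higher. Without the 2 libraries that had over 7% Rn45s 13 were called, all higher, against 4.17% of all genes higher.

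In double-KO cells at 8 h the result rests on single libraries. The members' median was -0.10 over all libraries and 0.048 without replicate 2 of tamoxifen, which had 386 CPM of Rpl39 and 18.7 CPM of Rpl22l1 while the other 2 libraries had 1511 and 2009 CPM and 144 and 157 CPM. Without replicate 3 of tamoxifen 43 members were called, 17 higher and 26 lower, against 7.07% of all genes higher and 18.3% lower in the same fit. The difference of the tamoxifen responses of the lines had 0 members called by limma at 8 h, where 0.524% of all genes were higher and 0.902% lower (1.43% in all), and 0 at 16 h, where 0% of all genes were called and 0 members had an unadjusted p under 0.05. At 8 h 35 members had an unadjusted p under 0.05 (41.7%, against 24.9% of all genes), of which 28 were lower in double-KO cells, and the smallest adjusted p was 0.0737 for Rpl4. Without replicate 3 of tamoxifen in double-KO cells 37 members were called in this difference, against 24.9% of all genes. Without replicate 1 there were 6, against 3.69% of all genes, and without replicate 2 there were 0, against 0.806%. Without the Kmt2c-KO ethanol library of replicate 2 there were 9, against 4.91% of all genes, and without the double-KO ethanol library of replicate 3 there were 6, against 6.02%.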

How the data were processed

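Gene expression was measured in 30 libraries made with a 3' tag kit (QuantSeq). The authors deposited 1 table of log2 values, which per the submitters' processing notes involved Salmon, DESeq2 1.34.0 and mm10, with no step given. The values were log2 of CPM plus an offset of 0.125, which was removed. Low values were whole multiples of 1 read, within 0.05 reads, for 95.7% to 97.6% of values, which gave the depth. Intervals and floors from it cover counting error only. The authors' mean and fold columns were not used as data.

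The main test was limma 3.58.1 (R 4.3.3, trend and robust) on log2(CPM + 1), with 10 group means over all 30 libraries. Fold changes are on this scale, which understates the change of low genes. Of 12428 genes, the 12414 whose mean reached 1 CPM in 1 or more groups were tested, with Benjamini-Hochberg adjustment over all of them and a two-sided threshold of 0.05. Each ± after a log2 fold change is its SE. The script was checked on simulated data. Python 3.11.15 and matplotlib 3.10.9 were used for counts and figures.

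The members, lists and rules were chosen with earlier results of these data known. Named members were a fixed set of stalk, MDM2-binding and paralog genes, the 6 called members with the largest rise and fall in each contrast, the 3 highest and lowest by level, and those farthest from the members' median. From the other lists up to 4 called genes were named by smallest adjusted p. Rpl10 was added as the partner of Rpl10l. Line contrasts in tamoxifen, the difference of line effects and the Rn45s settings were added after the data were seen. A few named genes are not reported here.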

Additional observations from a re-analysis of the deposited data

Results flagged for a closer look

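The effect of the line in ethanol differed between 16 h and 8 h for 2 ribosomal protein genes, by a test of the difference itself in the limma fit over all genes. These 2, both lower, are 2.38% of the 84 members, while 3.58% of all genes were higher and 1.26% lower, so members were not called more often than other genes. The difference was -1.92 ± 0.22 (SE) on the log2 scale for Rpl39l, with an adjusted p of 2.17e-06, and all 3 double-KO libraries lay below all 3 Kmt2c-KO libraries at each time. The difference was -0.92 ± 0.23 for Rpl17, with an adjusted p of 0.0184, a call that was lost without Kmt2c-KO replicate 3 at 8 h and without double-KO replicate 2 at 8 h. At 8 h the 3 double-KO libraries of Rpl17 lay above the 3 Kmt2c-KO libraries, and at 16 h they lay below. Without the 2 libraries that had over 7% Rn45s the value of Rpl17 was -0.78 with an adjusted p of 0.0629. Rn45s was higher in every 8 h library than in every 16 h library, and its part in the result was not tested.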

How the results depend on the processing

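The members' median was below 0 in the 4 line contrasts under each alternative run. Counts of called members and medians changed as follows, and the cause was not tested. The counts stand here without the share of all genes called in the same fit, which can move with the setting too. They describe the settings and are not a result about the members. Where a count is also given above with that share, it is to be read there. With a pseudocount of 5 the comparison of GRHL2-ERT with none called 1 member at 8 h and 2 at 16 h. With the libraries of each contrast alone, the calls were 8 for tamoxifen in Kmt2c-KO cells at 8 h, 74 for the lines in ethanol at 16 h, 21 for the lines in tamoxifen at 8 h, 6 and 3 for GRHL2-ERT against none, 26 and 52 over time in double-KO cells and without GRHL2-ERT, and 6 for the difference of line effects. With median-of-ratios scaling the medians were -0.58 and -0.70 for the lines in ethanol and -0.70 and -0.77 in tamoxifen, -0.019 for tamoxifen in double-KO cells at 8 h, -0.13 for the difference of tamoxifen responses at 8 h, and 0.29 and 0.37 over time in Kmt2c-KO cells and without GRHL2-ERT. The calls were then 69 for the lines in ethanol at 16 h, 1 for tamoxifen in Kmt2c-KO cells at 8 h, 1 and 2 for GRHL2-ERT against none, and 17 and 45 over time in double-KO cells and without GRHL2-ERT. Scaled to the total without members, tamoxifen in Kmt2c-KO cells at 8 h called 1, and the medians were -0.43 for the lines in ethanol at 16 h, -0.60 and -0.49 in tamoxifen, and 0.27 over time without GRHL2-ERT. Without the libraries above 7% Rn45s, the calls were 13 for tamoxifen in Kmt2c-KO cells at 8 h, 2 and 3 for GRHL2-ERT against none, 34 and 48 over time in double-KO cells and without GRHL2-ERT, and 4 for the difference of line effects. The medians were 0.048 for tamoxifen in double-KO cells at 8 h, -0.054 for the difference of responses and -0.32 for the lines in tamoxifen at 8 h. With Rn45s as a covariate the medians were 0.00022 for tamoxifen in Kmt2c-KO cells at 8 h, -0.044 for the difference of responses at 8 h, -0.013, -0.027 and 0.10 over time in Kmt2c-KO cells, double-KO cells and without GRHL2-ERT, and -0.35 for the lines in tamoxifen at 8 h. The calls were 12 and 17 over time in Kmt2c-KO cells and without GRHL2-ERT, and 1 and 2 for GRHL2-ERT against none, and Rpl8 turned to 0.023 over time in Kmt2c-KO and 0.016 in double-KO cells. With the total without Rn45s, GRHL2-ERT against none called 1 at 8 h. Leaving out 1 library gave 4 to 9 calls over time in double-KO cells, 0 to 2 for tamoxifen in Kmt2c-KO cells at 8 h, 0 to 43 in double-KO cells with medians of -0.20 to 0.048, 0 to 37 for the difference of responses at 8 h with medians of -0.34 to -0.069, and 1 to 3 for the difference of line effects. For the lines in tamoxifen at 8 h the medians were -0.62 to -0.32 and the difference in the share of tags was -6.46 to -4.92 percentage points. With a replicate block the lines in ethanol called 43 members at 8 h and 45 at 16 h, and no count moved by over 1.5 times. Same-numbered libraries correlated at a mean r of -0.06 to 0.02, and 8 of 30 libraries correlated best with their own number. Of the values of named members, 33 lost their call when 1 library was left out and 37 under the other settings. The depth puts Rpl3l, and Rpl26 and Rpl30 at 8 h, near the level of 3 reads.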
